A study of Danio rerio with 18 samples.

Results

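The genes described here were measured in the digestive organs of zebrafish larvae 4 h after a high-fat meal and set against unfed larvae of the same cohort. Each group had 3 pools, and each pool held the intestine, liver and pancreas of 10 wild-type larvae of the AB background at 6.5 days post fertilization (dpf), so that a value averages over 3 organs and 10 animals. The fed larvae had received an emulsion of 5% egg yolk, and the unfed larvae had received no meal. Groups used only for comparison were larvae 1 h after the same meal and larvae 1 h and 4 h after a low-fat meal of 10% egg white, which had unfed larvae of their own; all 18 samples formed 6 groups of 3. Per the design text the triplicates came from separate pairwise crosses. The labels do not give the clock time at which a group was collected, so time of day and meal cannot be told apart in this comparison.

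Messenger RNA was counted per transcript, and the transcript with the highest average level stood for its gene symbol. Of 21227 symbols, 12828 had an average log2 CPM (read counts scaled to a common library size, averaged over all samples) of at least 0 and are the genes described. The other 8399 lay below that level. This average includes the 4 h high-fat pools, so a gene near the floor can have passed the filter through its own rise. The authors' deposited table gives no values of single samples, so the depth is unknown and no spread between pools can be shown. The error given with a log2 fold change is the standard error that its p-value implies (see the description of the processing). Its median was 0.358 over 364 well expressed genes, which corresponds to a 95% interval of 0.702 on either side. This error hardly depends on the gene. It thus reflects a spread common to all genes and not the pools' spread at each gene. A gene was called higher or lower at an adjusted p under 0.05 by the authors' edgeR test, as the authors' deposited table gives it.

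After a fatty meal, enterocytes take up fatty acids and monoglycerides, rebuild triglyceride, hold part of it in cytoplasmic lipid droplets and export part on lipoproteins that carry apolipoprotein B together with smaller apolipoproteins. Fatty acids that enter intestinal and liver cells are also ligands of PPAR receptors, which are known to induce genes of fatty acid oxidation. Cholesterol supply, bile acids, the circadian clock and hormones of fasting act on the same organs.

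Some genes of lipid droplets, apolipoproteins, fatty acid oxidation and antiviral defence were called higher 4 h after the high-fat meal, and some genes of transport, the clock, sterol synthesis, muscle and cartilage were called lower. Of 12828 genes 95 were called higher (0.741%) and 79 lower (0.616%), 1.36% in all. The counts of called list members given below are to be set against these shares. An unadjusted p under 0.05 was reached by 997 genes (7.77%). The other genes stayed close to the unfed level: 10570 genes (82.4%) had a log2 fold change between -0.5 and 0.5, the median was 0.0102, and the 5th and 95th percentiles were -0.68 and 0.62. The smallest called rise was 1.28 and the smallest called fall -1.29 in the authors' deposited table. With implied standard errors 1.5 times as large, 22 of the 174 calls were kept, 19 higher and 3 lower. Among the rises 36 exceeded a log2 fold change of 2, and among the falls 11 lay below -2. The median average was 11.7 CPM for higher genes, 9.99 CPM for lower genes and 7.19 CPM for all genes. These medians do not show the called genes near the floor, as 19 higher and 11 lower ones averaged below 2 CPM. A log2 CPM of at least 2 was reached by 115 of the 174 called genes. Among the 20 largest rises and the 20 largest falls together, 22 genes reached it. In these pools of whole organs, fewer cells of a type and less RNA per cell cannot be told apart.

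**Figure D1:**
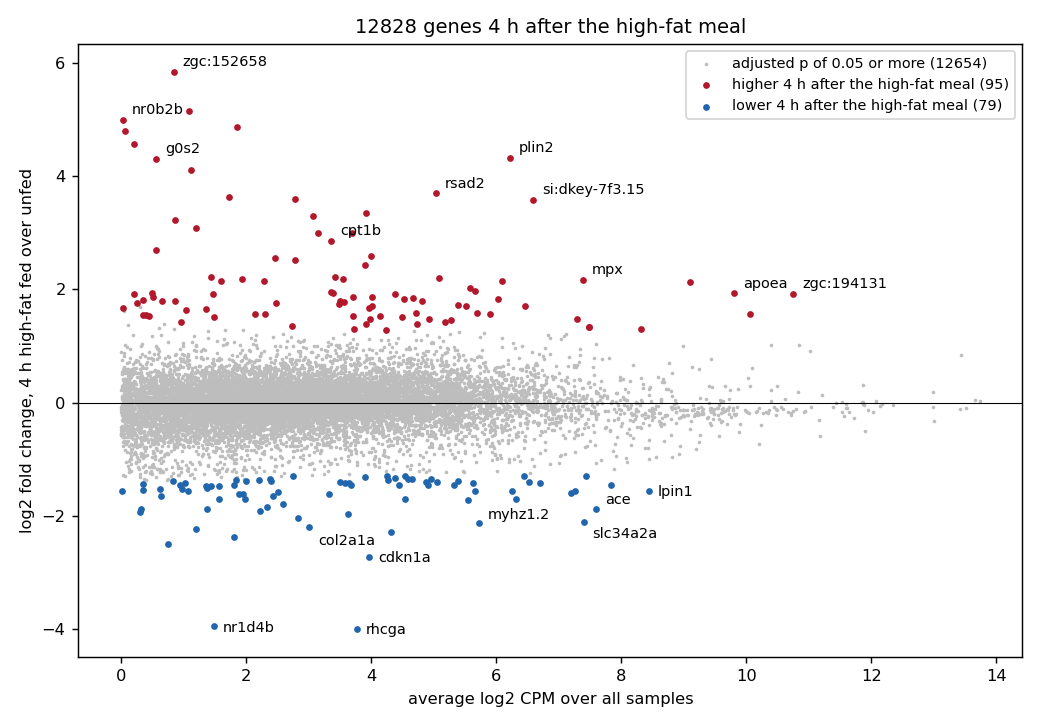
The plot sets the log2 fold change of larvae 4 h after the high-fat meal over unfed larvae (vertical axis) against the average log2 CPM over all samples (horizontal axis), 1 point per gene, with 95 genes called higher in red, 79 called lower in blue and 12654 others in grey. Rises reach 5.84 and falls -3.99, and called genes lie at every level from about 1 CPM up to the apolipoprotein gene zgc:194131 at 1725 CPM.

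The coat protein gene plin2 and the lipolysis inhibitor gene g0s2 led the lipid droplet genes. The plin2 gene, whose product coats cytoplasmic lipid droplets, had a log2 fold change of 4.33 ± 0.41 (SE, adjusted p = 1.8e-21) at an average of 74.6 CPM in the authors' deposited table, which is a 20.1-fold higher level. In Zv9 it lies on chromosome 15 from 16049488 to 16067837. The g0s2 gene, which in mammals codes for an inhibitor of the lipase ATGL, had 4.31 ± 0.46 (adjusted p = 6.0e-17) in the authors' deposited table, at only 1.47 CPM. So near the floor, g0s2 may have passed the level filter only through its rise. Of 14 measured genes of droplet coats and lipolysis these 2 were called higher and 0 lower, against 0.741% and 0.616% of all genes. Of the 14 genes 11 lay above 0, with a median of 0.44. Members that did not pass in the authors' deposited table included cideb (1.11, adjusted p = 0.13), which in mammals promotes droplet fusion and lipoprotein lipidation, and the monoglyceride lipase gene mgll (0.83, adjusted p = 0.44). The gene spg20b (named spartb in RefSeq), whose mammalian product spartin is found on lipid droplets, was not in the list and had 1.46 ± 0.36 (adjusted p = 0.011) in the authors' deposited table.

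Among the apolipoprotein genes 5 rose, at very different average levels. In the authors' deposited table the A-IV gene si:dkey-7f3.15 (apoa4b.3 in RefSeq) had 3.58 ± 0.39 (adjusted p = 5.4e-16, 96.0 CPM), its paralogs zgc:112992 (apoa4a) 2.15 ± 0.37 (adjusted p = 6.0e-06, 68.5 CPM) and zgc:194131 (apoa4b.2) 1.92 ± 0.37 (adjusted p = 9.5e-05, 1725 CPM). The apolipoprotein E gene apoea had 1.93 ± 0.37 (adjusted p = 8.3e-05, 896 CPM) and its paralog apoeb 1.57 ± 0.36 (adjusted p = 0.0038, 1067 CPM) in the authors' deposited table. These genes sit in 2 groups of neighbours. In Zv9, si:dkey-7f3.15 (from 26160903 to 26162161), si:dkey-7f3.14, zgc:194131 and apoeb (to 26202754) follow each other on chromosome 16, and apoea (from 11954418 to 11958954) and zgc:112992 (from 11963278 to 11968322) are neighbours on chromosome 19. Paralogs can share reads, so the split of the rise among the A-IV genes, and between both E genes, is uncertain.

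Of 31 measured genes of apolipoproteins and lipoprotein assembly 5 rose and 1 fell, against 0.741% and 0.616% of all genes. In this list 17 lay above 0 and the median was 0.03. The one that fell was apobl, a rare B apolipoprotein gene at 1.96 CPM (-1.53 ± 0.42, adjusted p = 0.036 in the authors' deposited table). Abundant members did not pass in the authors' deposited table: apobb, the main B apolipoprotein gene, had 0.83 (adjusted p = 0.43), apoa4 0.91 (adjusted p = 0.31), apoa1a 1.02 (adjusted p = 0.19), and mtp, whose product loads lipid onto apolipoprotein B, 0.71 (adjusted p = 0.65). Lower values without a call were those of the lipoprotein lipase gene lpl (-0.80) and the HDL receptor gene scarb1 (-0.93) in the authors' deposited table. Outside the list, zgc:85843 (tm6sf2a), whose mammalian counterpart TM6SF2 is needed to load lipid onto lipoproteins, had 1.52 ± 0.37 (adjusted p = 0.0066) and zgc:161979 (afp4) 2.14 ± 0.37 (adjusted p = 6.6e-06) at 551 CPM in the authors' deposited table.

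Genes of fatty acid oxidation were shifted upward, with 3 past the test. Of 42 measured genes of the carnitine shuttle and of fatty acid oxidation 3 rose and 0 fell, against 0.741% and 0.616% of all genes. In this list 34 lay above 0 and the median was 0.45, against 0.0102 over all genes. The entry enzyme gene cpt1b, which codes for a carnitine palmitoyltransferase of the outer mitochondrial membrane, had 2.86 ± 0.39 (adjusted p = 3.1e-10) in the authors' deposited table, a 7.26-fold higher level. Both kinds of subunit of the mitochondrial trifunctional protein, which carries out the last steps of beta-oxidation of long chains, were represented in the authors' deposited table, by hadhaa with 2.60 ± 0.38 and hadhb with 1.48 ± 0.36 (adjusted p = 1.1e-08 and 0.0092). The paralog of cpt1b, cpt1a, had 0.52 (adjusted p = 0.98), cpt2 1.07 (adjusted p = 0.16) and the very long chain dehydrogenase gene acadvl 0.86 (adjusted p = 0.38) in the authors' deposited table and did not pass. Beside the list, bbox1, the last enzyme of carnitine synthesis, had 1.83 ± 0.37 (adjusted p = 2.8e-04) and gpd2, the mitochondrial glycerol phosphate dehydrogenase, 1.86 ± 0.37 (adjusted p = 2.2e-04) in the authors' deposited table.

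A list of other genes known as PPAR targets, which also holds the PPAR receptors, their RXR partners and coactivators, had a median near 0. Of its 29 measured genes 1 rose and 0 fell, against 0.741% and 0.616% of all genes, with a median of 0.0025. The riser was angptl4, an inhibitor of lipoprotein lipase, with 1.71 ± 0.37 (adjusted p = 0.0010, 88.1 CPM) in the authors' deposited table. The receptor genes themselves had no call in the authors' deposited table, with 0.08 for pparaa, -0.77 for pparab and -1.1 for the partner rxraa.

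Uptake, binding and synthesis genes gave single strong members and quiet lists. The list of fatty acid uptake and binding also holds the transcription factor genes creb3l3a, hnf4a and hnf4g. Of its 20 genes 3 rose and 0 fell, against 0.741% and 0.616% of all genes, with a median of 0.25. The 3 risers were the ileal bile acid binding protein gene fabp6 (1.47 ± 0.36, adjusted p = 0.0097), the fatty acid binding protein gene fabp1b.1 (1.34 ± 0.36, adjusted p = 0.028) and creb3l3a (1.51 ± 0.37, adjusted p = 0.0067), a transcription factor of liver and intestine, in the authors' deposited table. A second row of the same interval with the joined symbol fabp1b.1;fabp1b.2 had 1.34 in the authors' deposited table and is the same signal. The abundant fabp2 (0.43) and the liver gene fabp10a (-0.37) were not called in the authors' deposited table. Of 32 genes of fatty acid synthesis, elongation and desaturation 2 rose and 0 fell, with a median of 0.21: the elongase gene elovl5 (2.43 ± 0.38, adjusted p = 1.8e-07) and me1, the cytosolic malic enzyme that supplies NADPH (2.14 ± 0.38, adjusted p = 1.3e-05), in the authors' deposited table. The gene si:dkey-61p9.11, named fasn2 in RefSeq and not counted in that list, was also called higher. It had 1.92 ± 0.37 (adjusted p = 1.0e-04) at 20.8 CPM in the authors' deposited table. There fasn had -1.18 (adjusted p = 0.18) at 1.09 CPM and the acetyl-CoA carboxylase gene acaca -0.92 (adjusted p = 0.31). Triglyceride synthesis had 0 of 25 genes higher and 1 lower, with a median of -0.03. That gene was lpin1, a phosphatidate phosphatase, with -1.56 ± 0.36 (adjusted p = 0.0041) at 348 CPM in the authors' deposited table. It shares its interval on chromosome 17 with si:ch211-175f11.5 (pfn4), which had -1.45, so the table does not separate these genes. The acyltransferase genes dgat1b (0.70) and dgat2 (0.06) were not called in the authors' deposited table. Of 42 phospholipid genes 0 were called in either direction and 3 had an unadjusted p under 0.05, with a median of 0.11.

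Cholesterol synthesis genes were shifted downward. Of 28 measured genes of the pathway and its sensors 0 rose and 3 fell, against 0.741% and 0.616% of all genes. Only 4 lay above 0, and the median was -0.41. The fallers code for enzymes in order along the pathway: mvda, which forms isopentenyl diphosphate (-1.46 ± 0.40, adjusted p = 0.032), sqlea, the squalene epoxidase (-1.61 ± 0.39, adjusted p = 0.0074), and lss, the lanosterol synthase (-1.69 ± 0.39, adjusted p = 0.0031), in the authors' deposited table. All of them are expressed at 1.92 to 3.86 CPM. The rate-limiting enzyme genes hmgcra (-0.47) and hmgcrb (0.18) and the regulator srebf2 (-0.36) were not called in the authors' deposited table. Among 33 genes of sterol transport and bile acids 2 rose and 0 fell, with a median of -0.05. They were nr0b2b, a paralog of the bile acid induced receptor SHP, and fabp6. The nr0b2b gene had 5.00 ± 0.55 (adjusted p = 3.6e-16) in the authors' deposited table at only 1.02 CPM, while its paralog nr0b2a, at 72.6 CPM, had -0.66 (adjusted p = 0.74). The nr0b2b average lies just above the floor and includes the pools in which the gene is high. It may have passed the level filter only through that rise. The sterol uptake gene npc1l1 had -0.94 (adjusted p = 0.28) in the authors' deposited table.

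Krueppel-like factor genes held a pair of paralogs that rose. Of 18 Krueppel-like factor genes 2 rose and 0 fell, with a median of -0.15: klf11b with 3.0 ± 0.39 (adjusted p = 3.6e-11) and its paralog klf11a with 1.66 ± 0.39 (adjusted p = 0.0038) in the authors' deposited table. Besides these the authors' deposited table called atf5a (1.56), a factor of the mitochondrial stress response in mammals, and the posterior gut Hox gene hoxb13a (1.68) higher. The retinoic acid degrading enzyme gene cyp26a1 rose by 1.92 ± 0.44 (adjusted p = 0.0031) in the authors' deposited table, at 1.15 CPM. With an average this near the floor, cyp26a1 may have passed the level filter only through its rise.

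Circadian clock genes changed in both directions. In the clock, BMAL and CLOCK proteins activate the genes of the PER, CRY and REV-ERB repressors and of output factors such as DBP, and REV-ERB receptors repress BMAL genes. Of 43 measured clock genes 1 rose and 6 fell, against 0.741% and 0.616% of all genes. In this list 23 had an unadjusted p under 0.05, and the median was -0.14. The fallers were 3 REV-ERB family genes, nr1d4b (-3.95 ± 0.43, adjusted p = 1.2e-16), nr1d1 (-1.56 ± 0.36, adjusted p = 0.0040) and nr1d2a (-1.38 ± 0.36, adjusted p = 0.021), together with per1a (-1.96 ± 0.37, adjusted p = 7.7e-05), dbpb (-1.70 ± 0.37, adjusted p = 0.0011) and si:ch211-284a13.1, named ciarta in RefSeq (-1.29 ± 0.36, adjusted p = 0.042), in the authors' deposited table. The riser was the BMAL gene arntl1b with 1.51 ± 0.39 (adjusted p = 0.016) in the authors' deposited table. Other activator genes lay above 0 without a call in the authors' deposited table, namely arntl1a (1.03), clock (1.1) and npas2 (0.99), and so did rorca (1.11) and cry2a (1.12). Below 0 without a call in the authors' deposited table lay per1b (-1.22, adjusted p = 0.066) and dbpa (-1.17, adjusted p = 0.095). Of the 43 genes 0 were called 4 h after the low-fat meal, where the list median was -0.19. The share of all genes called there was 0.444%, so this count of 0 is not read as a result. For that meal the authors' deposited table gave -1.29 for nr1d4b (adjusted p = 0.12), -0.07 for per1a and -0.67 for arntl1b.

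**Figure D2:**
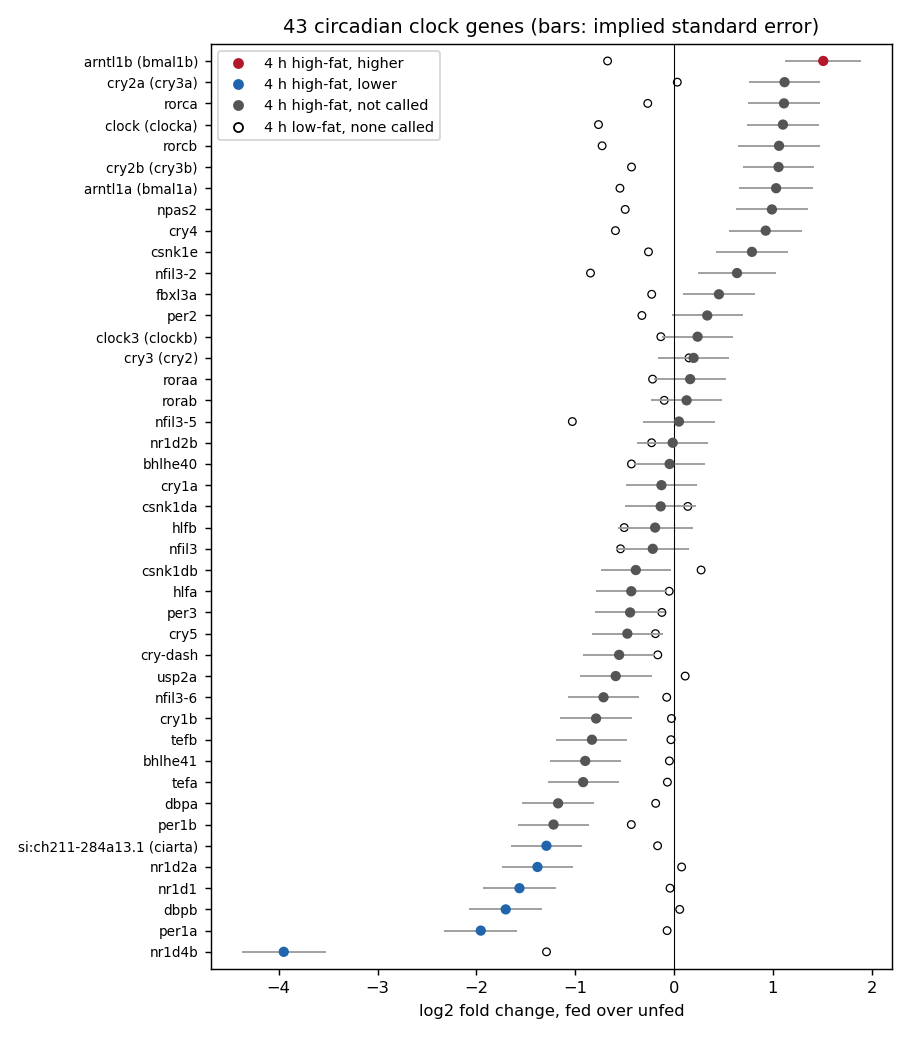
The plot shows the log2 fold change (horizontal axis) of each of 43 clock genes 4 h after the high-fat meal over unfed larvae as filled points with bars of 1 implied standard error, and 4 h after the low-fat meal over its own unfed larvae as open circles. The filled points run from -3.95 for nr1d4b to 1.51 for arntl1b, and 0 of the open circles is a called gene.

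Genes known as glucocorticoid targets lay lower, with exceptions. Of 28 measured 3 fell and 1 rose, against 0.616% and 0.741% of all genes, 8 lay above 0 and the median was -0.41. The fallers were fkbp5, a cochaperone of the receptor (-1.55 ± 0.36, adjusted p = 0.0044, 152 CPM), ddit4, an inhibitor of mTORC1 (-1.46 ± 0.37, adjusted p = 0.012), and per1a, which the clock list also holds, in the authors' deposited table. The riser was angptl4, counted above as a PPAR target. Without a call in the authors' deposited table were klf9 (-1.0) and tsc22d3 (-0.71). Immediate early genes had 0 of 33 higher and 2 lower, nr4a1 (-1.91 ± 0.38, adjusted p = 2.8e-04) and fos (-1.33 ± 0.36, adjusted p = 0.032) in the authors' deposited table, with a median of -0.25. Among 27 genes of cell cycle inhibition and the DNA damage response 1 fell and 0 rose: cdkn1a, the p21 inhibitor of cyclin-dependent kinases, with -2.72 ± 0.39 (adjusted p = 3.3e-09) in the authors' deposited table, a level 0.152 times that of unfed larvae. The list median was -0.12. Of 35 gluconeogenesis and fasting genes 0 were called and 9 had an unadjusted p under 0.05, with a median of -0.19; the authors' deposited table gave 0.02 for igfbp1a and -0.58 for pck1, the gluconeogenic carboxykinase at 2316 CPM.

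Genes of apical transport and of the brush border were among those that fell. The list of ammonia, phosphate and ion transport also holds aquaporin and carbonic anhydrase genes and the transcription factor genes foxi3a and foxi3b. Of its 50 genes 4 fell and 0 rose, against 0.616% and 0.741% of all genes, with a median of -0.04. The ammonia channel gene rhcga had the largest fall of any gene, -3.99 ± 0.42 (adjusted p = 2.3e-17, 13.6 CPM) in the authors' deposited table, and its relative rhcgl1 had -1.42 ± 0.37 (adjusted p = 0.019). The sodium phosphate cotransporter gene slc34a2a had -2.10 ± 0.37 (adjusted p = 1.0e-05) at 168 CPM and the carbonic anhydrase gene ca4b -1.35 ± 0.36 (adjusted p = 0.028) in the authors' deposited table. The paralogs rhcgb (1.01) and slc34a2b (0.82) lay above 0 without a call in the authors' deposited table. The anion exchanger gene slc26a6, outside the list, had -1.71 ± 0.37 (adjusted p = 0.0010) in the authors' deposited table, a call that was lost when its transcript of lowest level was used.

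Enterocyte genes of digestion and absorption had 4 of 40 members lower and 0 higher, with a median of -0.11. The angiotensin converting enzyme gene ace had -1.88 ± 0.37 (adjusted p = 1.6e-04, 194 CPM), the peptide transporter gene slc15a1a -1.41 ± 0.36 (adjusted p = 0.017), the meprin gene mep1b -1.39 ± 0.36 (adjusted p = 0.019) and the lactase gene lct -1.34 ± 0.36 (adjusted p = 0.030) in the authors' deposited table. Brush border enzymes outside the list fell as well in the authors' deposited table, namely tmprss15 (-1.4), the enteropeptidase that activates trypsinogen, and the ceramidase gene asah2 (-1.30). Structural and uptake genes of the same cells were not called in the authors' deposited table, among them vil1 (0.62), slc5a1 (0.29), the glucose transporter, and slc15a1b (-0.32), the paralog of slc15a1a at 780 CPM. Genes of lysosome rich enterocytes, which take up protein in the posterior intestine, had 2 of 41 higher and 0 lower, 32 above 0 and a median of 0.28. These were cubn, the cubilin receptor gene (1.85 ± 0.37, adjusted p = 2.4e-04), and fabp6, in the authors' deposited table. The partners of cubilin in protein uptake, dab2 (1.15, adjusted p = 0.10), lrp2b (0.86) and amn (0.85), were not called in the authors' deposited table.

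Antiviral genes induced by interferon gave the largest share of called members among the 42 lists. As the lists were chosen with earlier results of these data known, this rank is a description only. Of 39 measured 12 rose and 0 fell, against 0.741% and 0.616% of all genes, 30 lay above 0 and the median was 0.30. The highest values in the authors' deposited table were 5.15 ± 0.71 for si:dkey-26g8.11 (ifit10), 3.69 ± 0.42 for rsad2, which codes for viperin (adjusted p = 5.7e-15, 32.6 CPM), 3.62 ± 0.55 for mxa and 2.55 ± 0.45 for mxe, of the Mx GTPases, and 3.59 ± 0.46 for zgc:123282 (ifit8). Lower in size in the authors' deposited table were si:dkey-116m16.3 (ifit14, 2.2), ifit2 (1.98), the signal transducer gene stat1b (1.87), helz2 (1.79), the RNA sensor gene dhx58 (1.75), the ubiquitin-like isg15 (1.71) and the kinase gene pkz (1.35). The single largest rise of any gene, 5.84 ± 0.69 for zgc:152658 (adjusted p = 6.0e-14, 1.79 CPM) in the authors' deposited table, belongs to a gene with a provisional name only. At this level zgc:152658 may have passed the level filter only through its rise. Outside the list, the authors' deposited table called 3 ifi27 genes that lie together on chromosome 13 (zgc:152791 3.35, si:dkey-188i13.9 3.3 and zgc:123068 1.68) and 2 herc56 genes that lie together on chromosome 1 (si:ch211-281g13.5 4.11 and si:ch211-281g13.4 3.08). The neighbour of plin2 on chromosome 15, si:ch211-24o10.6 (igldcp), had 3.0 ± 0.42 in the authors' deposited table. Its own transcripts differed by 1.68, the widest range among the 80 called genes with several transcripts, where the median range was 0.064, and its call was lost with the transcript of lowest level. Members without a call in the authors' deposited table included stat1a (0.17), irf7 (0.82) and cmpk2 (0.10), the neighbour of rsad2 in many vertebrate genomes.

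The antiviral genes were also high 4 h after the low-fat meal, a comparison with libraries of its own. There 13 of the 39 were called higher and 0 lower, against 0.437% of all genes, with 5.49 for rsad2, 3.49 for mxa and 4.37 for cmpk2 in the authors' deposited table. Larvae 1 h after the high-fat meal had 7 of the 39 lower and 0 higher, against 1.77% and 1.96% of all genes, with -3.45 for rsad2 and -2.14 for isg15 in the authors' deposited table. The rsad2 value was thus above 0 at 4 h and below 0 at 1 h against the same unfed larvae. Whether infection state or parental cross differed between these pools was not tested.

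Inflammation genes were mixed, with 2 of 35 higher, 1 lower and a median of -0.23, where 0.741% of all genes were higher and 0.616% lower. The authors' deposited table called irg1l (1.70 ± 0.37, adjusted p = 0.0011), an immune responsive gene of itaconate synthesis in mammals, and noxo1b (1.3 ± 0.36, adjusted p = 0.038), an organizer of an epithelial NADPH oxidase, higher and the cytokine gene il1b (-1.47 ± 0.41, adjusted p = 0.037) lower. The chemokine gene zgc:194112 (ccl19a.2) had 3.22 ± 0.53 (adjusted p = 1.7e-06) in the authors' deposited table, at 1.82 CPM. So near the floor, zgc:194112 may have passed the level filter only through its rise. Of 29 leukocyte genes 1 rose, the myeloperoxidase gene mpx with 2.17 ± 0.37 (adjusted p = 4.5e-06, 167 CPM), and 1 fell, il1b, in the authors' deposited table. Other markers of neutrophils and macrophages were not called in the authors' deposited table, with 0.16 for lyz and 0.22 for mpeg1, and the list median was -0.11.

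Skeletal muscle and cartilage genes, which mark tissue outside the 3 dissected organs, were among those that fell. Of 77 measured skeletal muscle genes 14 fell and 0 rose, 61 had an unadjusted p under 0.05 (7.77% of all genes had one), only 5 lay above 0 and the median was -0.98, the lowest of the 42 lists. The myosin heavy chain gene myhz1.2 had -2.12 ± 0.37 (adjusted p = 1.0e-05), the titin genes ttnb and ttna -1.70 and -1.56, the calcium release channel gene ryr1a -1.78 and the obscurin-like gene obsl1b -2.37 ± 0.40 (adjusted p = 2.9e-06) in the authors' deposited table. The fast myosin heavy chain genes myhz2 (-1.45), myhc4 (-1.29), myhz1.2 and myhz1.1 (-1.6) lie together on chromosome 5 from 33843993 to 33946744, and paralogs can share reads, so their separate values in the authors' deposited table are uncertain. Further called members in the authors' deposited table were the nebulin gene neb (-1.40), the calcium channel gene cacna1sb (-1.36) and the fast troponin I genes tnni2a.3 (-1.62) and tnni2b.2 (-1.41). Exceptions without a fall in the authors' deposited table were actn2 (0.51), acta1b (0.43) and the enolase gene eno3 (-0.09), which had the average of 737 CPM and is also expressed outside muscle. Averages of the list summed to 4464 CPM over all samples. Of 41 cartilage and connective tissue genes 3 fell and 0 rose, with a median of -0.53: col9a2 (-2.50 ± 0.46, adjusted p = 4.3e-05), col2a1a (-2.19 ± 0.39, adjusted p = 1.2e-05) and matn1 (-1.38), all of cartilage, in the authors' deposited table. The muscle list had a median of -0.07, 1 member higher and 0 lower in larvae 4 h after the low-fat meal, and a median of -0.52, 2 members higher and 3 lower in larvae 1 h after the high-fat meal. Over all genes the shares called were 0.437% higher and 0.0078% lower 4 h after the low-fat meal, and 1.96% higher and 1.77% lower at 1 h in the high-fat cohort. Other called genes of muscle or connective tissue in the authors' deposited table were cav3 (-1.45), asb2b (-1.87) and lama2 (-1.29), the laminin of muscle basement membrane. The sodium channel gene scn8ab, whose mammalian counterpart is neuronal, had -1.85 and was called in the authors' deposited table. Whether muscle and cartilage were carried over in the dissection, and whether this had a part in any of the falls, was not tested.

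Markers of the dissected organs differed in their counts, where 1.36% of all genes were called in either direction. Counts of 0 in these lists lie near that share. Enterocyte genes, which summed to 8714 CPM, had the 4 of 40 members lower that are given above, against 0.616% of all genes. Exocrine pancreas genes, whose averages summed to 68798 CPM, had 0 of 21 called, 0 with an unadjusted p under 0.05, 7 above 0 and a median of -0.07. Hepatocyte genes (summed average 19258 CPM) had 0 of 61 called, 4 with an unadjusted p under 0.05 and only 13 above 0, with a median of -0.31. Gut and islet hormone genes had 0 of 28 called, 1 with an unadjusted p under 0.05 and a median of 0.03, with 0.2 for ins and -0.06 for gcga in the authors' deposited table, and goblet cell genes had 0 of 9 called, 1 with an unadjusted p under 0.05 and a median of 0.40. No call fell on smooth muscle genes (20 measured, 2 with an unadjusted p under 0.05, median -0.24), on blood and vessel genes (23 measured, 2 with such a p, 1 above 0, median -0.25) or on skin, eye and nervous tissue genes (25 measured, 4 with such a p, median -0.31). The defining genes of liver (fabp10a, 950 CPM), exocrine pancreas (try, 11672 CPM) and enterocytes (fabp2, 1043 CPM) were all abundant.

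Several large lists had no called gene. Only 1.36% of all genes were called, so a count of 0 in lists of this size is not read as a result. Some of these lists had a median away from 0. Protein translocation and vesicle export genes had 0 of 70 called, 14 with an unadjusted p under 0.05, 60 above 0 and a median of 0.25, with the highest values for sec23a (1.2, adjusted p = 0.073), of the COPII coat that also carries lipoproteins out of the endoplasmic reticulum, and copa (1.19, adjusted p = 0.076), of the COPI coat, in the authors' deposited table. Proteasome subunit genes had 0 of 46 called, 1 with an unadjusted p under 0.05, 40 above 0, a median of 0.32 and a highest value of 0.77. Cytosolic ribosomal protein genes had 0 of 75 called, 0 with an unadjusted p under 0.05 and 0 above 0, within a range from -0.46 to -0.07 and a median of -0.15. The counts of called members were also 0 for respiratory chain genes (73 measured, 0 with an unadjusted p under 0.05, median -0.0011) and cell cycle genes (31 measured, 0 with such a p, median -0.08). The same held for oxidative stress genes (32 measured, 2 with such a p, median -0.01), cytosolic heat shock genes (35, 4 and -0.07), endoplasmic reticulum chaperones (38, 1 and 0.12) and sugar metabolism genes (46, 4 and -0.09). The 33 genes of the amino acid shortage response had 1 lower, ddit4, and a median of 0.0086, and of 77 cytochrome P450 and conjugation genes 2 rose, cyp26a1 and cyp3c1l2 (1.31 in the authors' deposited table), with a median of -0.01.

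**Figure D3:**
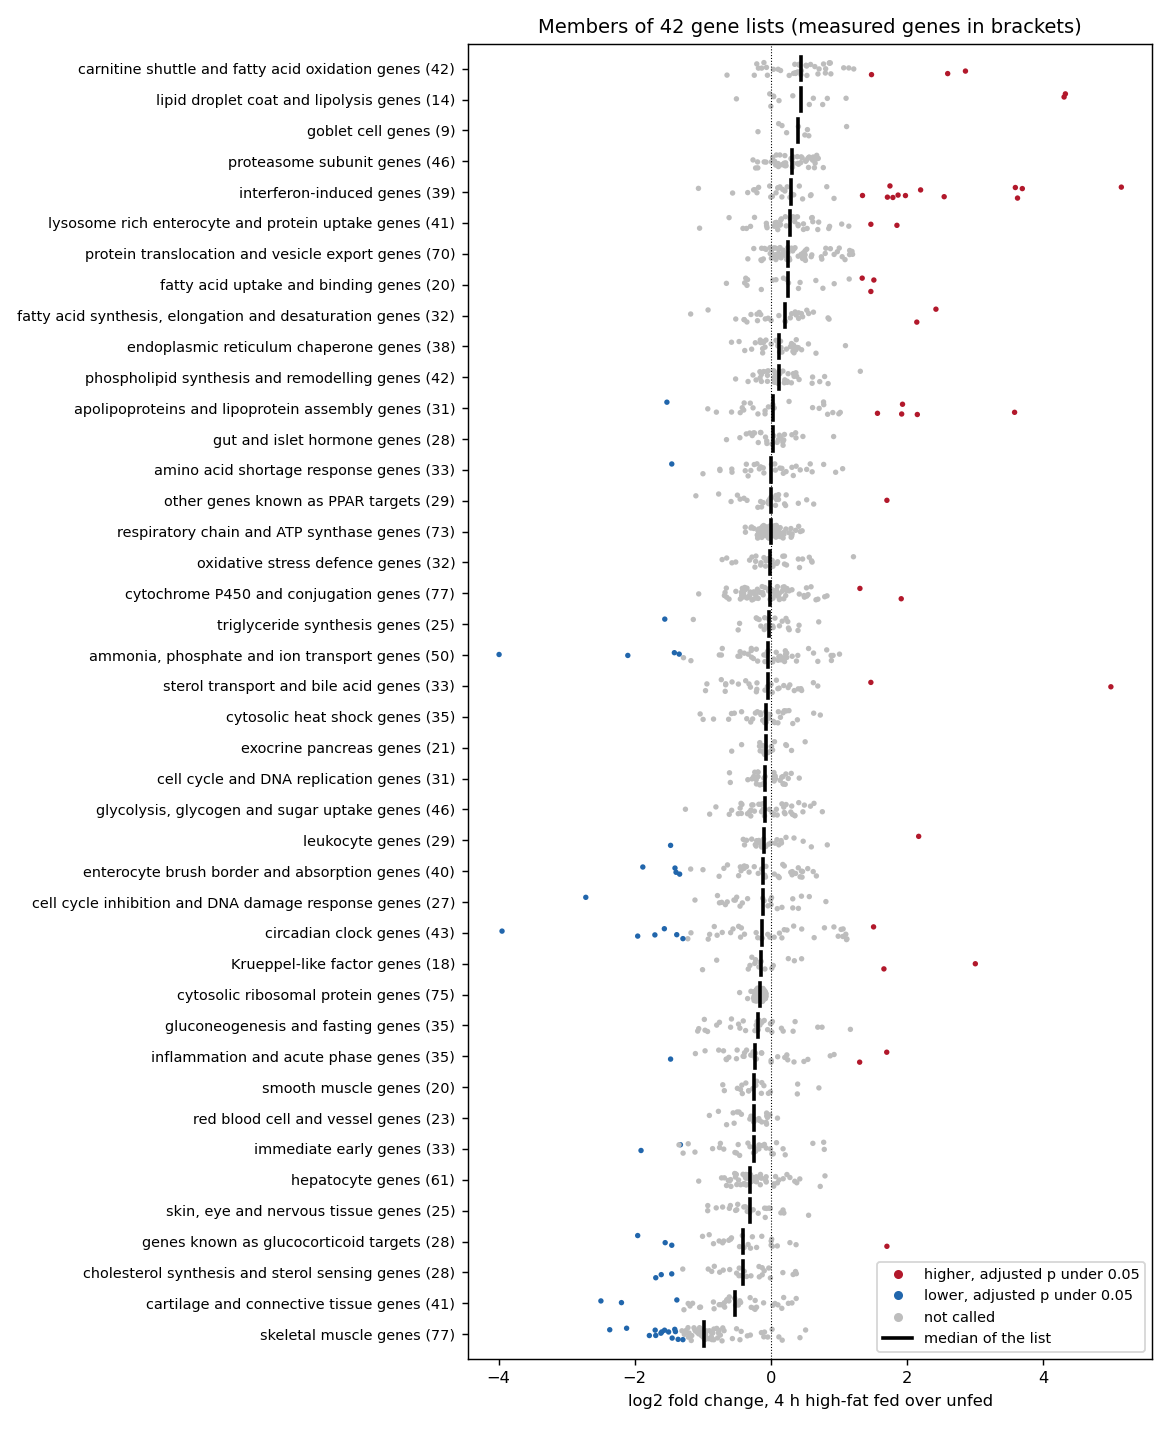
The plot gives the log2 fold change 4 h after the high-fat meal over unfed larvae (horizontal axis) of every measured member of 42 gene lists, 1 row per list ordered by its median (black bar), with called members in red or blue and others in grey. Fatty acid oxidation and lipid droplet genes have the highest medians (0.45 and 0.44) and skeletal muscle genes the lowest (-0.98).

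The lists together held 1512 measured genes, among them 38 of the 95 higher and 42 of the 79 lower genes, and 61 genes stood in more than 1 list. Of the 174 called genes 54 carry provisional names, for 23 of which RefSeq gives a current symbol. The remaining genes among the 20 largest rises in the authors' deposited table were si:dkey-40g16.6 (4.87 ± 0.52), si:dkey-211g8.5 (4.8 ± 0.86) and gig2l (4.56 ± 0.65), at 1.04 to 3.61 CPM. Rises of genes this near the floor can have carried them past the level filter. Among the 20 largest falls the authors' deposited table also holds si:dkey-202l22.6 (-2.22 ± 0.41), si:ch211-171h4.3 (-1.92 ± 0.40) and si:ch211-106h11.3 (-1.88 ± 0.44), at 1.24 to 2.3 CPM. Called genes outside the lists with a known product include, among the higher ones in the authors' deposited table, the phospholipase genes pla2g12a (1.43) and abhd3 (1.56), the epimerase gene gale (1.39), the mucin gene muc5b (1.53), the transporter gene slc6a13 (1.47), cyp2k20 (1.81) and si:dkey-183c16.7 (1.28), named acot18 in RefSeq. Among the lower ones in the authors' deposited table were dhrs13a.2 (-2.04), zgc:171687 (-2.29), named mfap4.4 in RefSeq, and mylipb (-1.45), a relative of the mammalian ligase that degrades the LDL receptor. The called genes nearest to the threshold in the authors' deposited table were lama2 (adjusted p = 0.0483), eya4 (adjusted p = 0.0489) and mfsd4b (adjusted p = 0.0495), and the nearest uncalled ones were fosb (-1.35, adjusted p = 0.0502), the joined symbol si:dkey-102c8.2;si:dkey-102c8.6 (1.26, adjusted p = 0.051) and phf20l1 (-1.25, adjusted p = 0.055).

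The 4 h response differed from the 1 h response of the same meal at many genes. The unfed larvae are shared by both comparisons and cancel in the difference, which was tested against a normal distribution with the errors that the p-values imply. Over 12828 genes 406 had a higher value at 4 h than at 1 h (3.16%) and 412 a lower one (3.21%). Genes called at 4 h were chosen on a value that enters this difference, so that their differences are described and their number is not read as a result. Among droplet and oxidation genes the difference 4 h minus 1 h was 3.0 ± 0.39 for cpt1b (adjusted p = 3.5e-12), 2.61 ± 0.47 for g0s2 (adjusted p = 2.9e-06) and 1.64 ± 0.37 for hadhaa (adjusted p = 5.9e-04). The plin2 gene had 4.33 at 4 h and 5.54 at 1 h in the authors' deposited table, a difference of -1.21 ± 0.42 that did not pass (adjusted p = 0.060). For elovl5, with 2.43 at 4 h and 1.55 at 1 h in the authors' deposited table, the difference of 0.88 ± 0.37 did not pass either (adjusted p = 0.17).

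Cholesterol synthesis genes had a median below the unfed level at 4 h and above it at 1 h. Of 28 genes 11 were lower at 4 h than at 1 h and 1 was higher, with list medians of -0.41 at 4 h and 0.51 at 1 h. Over all genes 3.21% were lower and 3.16% higher at 4 h than at 1 h, and the list counts that follow are to be set against these shares. The sqlea gene had -1.61 at 4 h and 1.96 at 1 h in the authors' deposited table (difference -3.57 ± 0.38, adjusted p = 1.3e-17). Of the 50 genes in the ion transport list, which also holds aquaporins, 11 were lower and 3 higher at 4 h than at 1 h. The largest difference was that of rhcga, with -3.99 at 4 h and 0.42 at 1 h in the authors' deposited table (difference -4.42 ± 0.39, adjusted p = 3.7e-26). Likewise cdkn1a had -2.72 at 4 h and 1.63 at 1 h in the authors' deposited table (difference -4.35 ± 0.38, adjusted p = 2.0e-27). Of the 39 interferon-induced genes 17 were higher at 4 h than at 1 h and 0 lower, led by rsad2 (difference 7.14 ± 0.50, adjusted p = 6.3e-42). Of 35 fasting genes 8 were higher and 2 lower at 4 h than at 1 h; ypel3 had 0.69 at 4 h and -3.72 at 1 h in the authors' deposited table (difference 4.41 ± 0.39, adjusted p = 1.7e-26). The clock list had 9 genes higher and 10 lower at 4 h than at 1 h, among the higher ones rorca (2.31 ± 0.36), cry2a (2.13 ± 0.36) and arntl1b (2.14 ± 0.40).

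**Figure D4:**
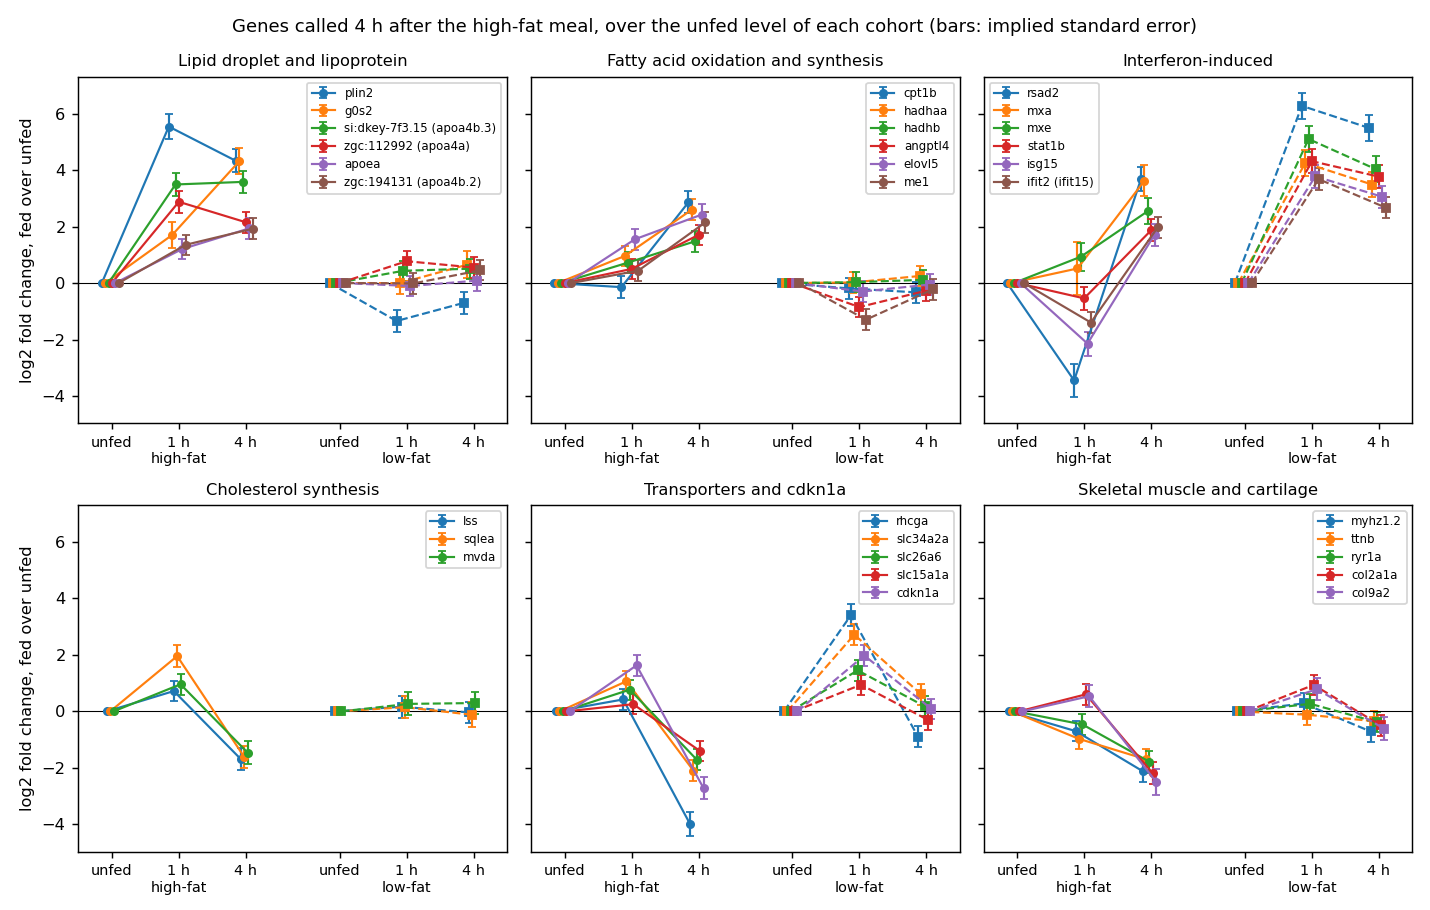
The panels plot the log2 fold change over the unfed larvae of the same cohort (vertical axis, bars of 1 implied standard error) for genes called 4 h after the high-fat meal, from the unfed level (0 by construction) through 1 h to 4 h. Circles with solid lines stand for the high-fat cohort and squares with dashed lines for the low-fat cohort. In the high-fat cohort cpt1b has -0.14 at 1 h and 2.86 at 4 h and sqlea changes sign between these times, while rsad2 is below 0 at 1 h and above 0 at 4 h.

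The response to the high-fat meal was also set against the response to the low-fat meal at 4 h. No library is shared by these comparisons, but meal and cohort cannot be told apart in them. Over 12828 genes the high-fat response was higher at 28 (0.218%) and lower at 32 (0.249%). The largest differences in favour of the high-fat meal were those of nr0b2b (5.75 ± 0.98, adjusted p = 5.0e-06), plin2 (5.03 ± 0.56, adjusted p = 1.4e-15), g0s2 (3.66 ± 0.66), zgc:194112 (3.52 ± 0.69), cpt1b (3.19 ± 0.54) and klf11b (3.17 ± 0.53). The nr0b2b, g0s2 and zgc:194112 genes average 1.02, 1.47 and 1.82 CPM, near the level floor. They may have passed the filter only through their rise after the high-fat meal. At 4 h after the low-fat meal plin2 had -0.70 and cpt1b -0.33 in the authors' deposited table. Further lipid genes above their low-fat value were si:dkey-7f3.15 (3.07 ± 0.53), fasn2, listed as si:dkey-61p9.11 (2.72 ± 0.52), elovl5 (2.48 ± 0.52), me1 (2.37 ± 0.54), hadhaa (2.35 ± 0.52) and angptl4 (1.98 ± 0.51). The cubilin receptor gene cubn, of protein uptake, had a difference of 2.34 ± 0.51. For apoea the difference of 1.85 ± 0.51 did not pass (adjusted p = 0.063). The myeloperoxidase gene mpx had a difference of 2.98 ± 0.52 (adjusted p = 7.0e-06), with -0.81 after the low-fat meal in the authors' deposited table.

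Among the differences in the other direction were heat shock genes. The serpinh1b gene codes for a collagen chaperone. It had -1.04 after the high-fat meal, against 4.44 after the low-fat meal in the authors' deposited table (difference -5.48 ± 0.56, adjusted p = 2.8e-18). Of 35 heat shock genes 5 passed the test with a lower high-fat value, against 0.249% of all genes. The antiviral gene cmpk2 had 0.10 after the high-fat meal, against 4.37 after the low-fat meal in the authors' deposited table (difference -4.27 ± 0.56). Further genes with a negative difference were called lower after the high-fat meal and not called after the low-fat meal. There only 1 of 12828 genes (0.0078%) was called lower. The genes were chosen on the high-fat value that enters the difference, so their differences are a description only. These differences were those of rhcga (-3.10 ± 0.56), cdkn1a (-2.81 ± 0.53), slc34a2a (-2.70 ± 0.51), nr1d4b (-2.66 ± 0.56), ddit4 (-2.46 ± 0.51), fkbp5 (-2.22 ± 0.51) and lpin1 (-1.92 ± 0.51). The differences of per1a (-1.89 ± 0.52, adjusted p = 0.058) and sqlea (-1.49 ± 0.59, adjusted p = 0.67) did not pass. The muscle gene tcap had -1.69 after the high-fat meal, against 2.08 after the low-fat meal in the authors' deposited table (difference -3.77 ± 0.55).

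**Figure D5:**
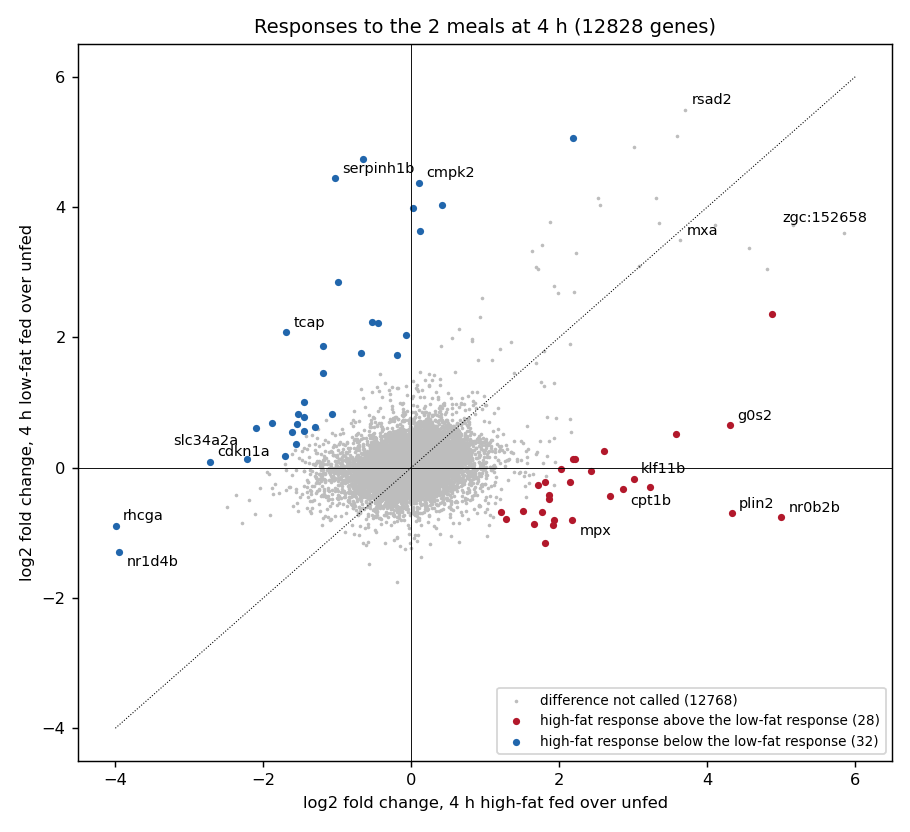
The plot sets the log2 fold change 4 h after the low-fat meal (vertical axis) against that 4 h after the high-fat meal (horizontal axis) for 12828 genes, each over its own unfed larvae, with the dotted line marking equal values. The 28 genes in red lie to the right of the line, among them plin2 and nr0b2b, and the 32 in blue lie to the left, among them serpinh1b near the top and rhcga at the far left.

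Genes called higher at 4 h by both comparisons numbered 28, which is 29.5% of the 95 genes higher after the high-fat meal and 50.0% of the 56 genes higher after the low-fat meal, and 11 of the 28 belong to the interferon list. Of the 95 genes higher after the high-fat meal the other 67 were not called after the low-fat meal, where 0.437% of all genes were called higher. Of the 79 lower genes 78 were not called after the low-fat meal and 0 were called lower there, where only 1 gene (0.0078%) was called lower in all. Across the 12828 genes, which are not independent replicates, the values of both comparisons had a Pearson r of 0.311.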

How the data were processed

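The authors deposited a single table, which holds their comparisons over 56754 Ensembl transcripts, with 0 columns of single samples, so no test on counts could be run. The authors aligned reads with TopHat2 to Zv9 and tested with edgeR, per the submitters' processing notes, with versions not given in the sources used here. Per the file headers, the deposited values are a log2 fold change, an average log2 CPM, a p-value and its adjusted form, which equals a Benjamini-Hochberg adjustment over the whole table.

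A symbol stands for its transcript of highest log2 CPM, at least 0. The implied standard error is the size of the log2 fold change divided by the normal score of its p-value (median 0.358 at high and 0.394 at low levels). It hardly depends on the gene, so p-values reflect a spread common to all genes and not the pools' spread at each gene. Differences between comparisons were set against a normal distribution with these errors and adjusted over 12828 genes. The test was run on simulated data drawn with the same errors, which cannot check whether these errors hold at each gene. Deposited starts count from 0 and were raised by 1. Of the symbols 145 join several genes. Genes are named that had the 20 largest changes in either direction, were called, stood in a list or lay next to the threshold. Members, lists and rules were chosen with earlier results of these data known. Newer names come from RefSeq (assembly GRCz12tu), without coordinates. Python, pandas and SciPy were used.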

Additional observations from a re-analysis of the deposited data

Results flagged for a closer look

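The responses to the meals at 4 h differed at a small share of the 12828 genes. The 4 h high-fat value exceeded the low-fat value at 28 genes (0.218%) and was lower at 32 (0.249%). The test compares different cohorts as well as different meals. Among the 40 genes with the largest changes after the high-fat meal, 15 differed from the low-fat response. Above the low-fat value were nr0b2b (5.75), plin2 (5.03), g0s2 (3.66), zgc:194112 (3.52), cpt1b (3.19), klf11b (3.17), si:dkey-7f3.15 (3.07) and si:dkey-40g16.6 (2.51), given as differences of log2 fold changes. Below the low-fat value were rhcga (-3.10), cdkn1a (-2.81), slc34a2a (-2.70), nr1d4b (-2.66), si:ch211-106h11.3 (-2.57), si:dkey-202l22.6 (-2.35) and slc26a6 (-1.89). These 40 genes were chosen on the high-fat values that enter the differences. Among them genes near the level floor, such as nr0b2b, g0s2 and zgc:194112, may have passed the filter only through their rises.

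Within the high-fat cohort, 406 genes (3.16%) were higher at 4 h than at 1 h and 412 (3.21%) were lower. Of the same 40 genes 32 differed. Outside the genes described, transcripts without a symbol held calls against unfed larvae as well, where the authors' deposited table calls 67 higher and 65 lower.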

How the results depend on the processing

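No paired analysis was possible because the table holds comparisons and no columns of single samples, and for the same reason no replicate was left out. Of the 8 alternatives run only the transcript of lowest level could change the sign of a called gene, and there 0 of the 174 changed sign. The 174 stayed called when p-values were adjusted over the measured genes and after centring on the median. Neither setting could remove many calls. Centring moved each value by only 0.0102, and adjusting over the measured genes, fewer than all rows, added 23 calls. Without the filter on level the 174 also stayed called, but this was fixed in advance because their deposited values are unchanged. At an adjusted p under 0.01 the calls kept were 113, with 36 lower genes in all and 23 lower in the lists, and the 40 largest changes were among those kept. Without the filter 123 genes were lower, since genes of lower level were counted as well. With a log2 CPM of at least 2 fewer genes were counted, and 51 were lower. This setting removed called genes of low level and left 115 of the 174 and 22 of the 40 largest changes, with deposited values unchanged. There the high-fat response exceeded the low-fat response at 14 genes, and 250 genes were higher at 4 h than at 1 h. With the transcript of lowest level 164 calls were kept. With 1 symbol per interval (chosen after seeing the data) 165 of 165 were kept, which was also fixed in advance because the same deposited values are used. An implied standard error 1.5 times as large, with a median of 0.538, kept 22 calls, 19 higher and 3 lower, of which 12 and 3 stood in the lists. It kept 20 of the 40 largest changes, and myhz1.2, obsl1b, col2a1a, col9a2, slc34a2a, slc26a6, per1a, ace and nr4a1 were among those that lost their call. With no values of single pools, depth and its limits are unknown.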
